A study of Homo sapiens with 6 samples.

Results

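AP-1 family genes were followed in NCI-H226 cells, an established human line that the labels call mesothelioma of the pleura, after HC278 or its vehicle. The members were the 10 rows of the expression table named FOS, FOSB, FOSL1, FOSL2, JUN, JUNB, JUND, ATF3, BATF3 and MAFF, of 60676 rows in all, and all 10 passed the filter on low counts that left 15510 genes. In the HC278 group, cells had received 500 nM of the compound for 24 h, and in the DMSO group vehicle for the same 24 h, with 3 libraries in each group (replicates 1, 2 and 6 of HC278, and replicates 1, 2 and 3 of DMSO). HC278, also written HC31278A and HC-31278 in the labels, is called a TEAD degrader by the series title. All libraries came from 1 cell line with no other agent named. Whether replicates are cultures of their own is not said by any label, and each p-value thus reflects the spread among these libraries, possibly technical, and nothing wider.

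AP-1 is a dimer of leucine-zipper (bZIP) proteins. JUN proteins can pair with each other or with FOS proteins, whereas FOS proteins need a partner, and the dimers bind the TPA response element (TRE). ATF3 and BATF3 join the same dimers, and ATF3 more often binds the longer cAMP response element (CRE). Small MAF proteins such as MAFF pair mainly with other bZIP families. At many enhancers AP-1 sites lie close to TEAD sites, and AP-1 acts there together with YAP and TEAD. FOS, FOSB, JUN and JUNB are immediate early genes, which serum and growth factors switch on within minutes through ERK and other kinases, while FOSL1, FOSL2 and JUND transcripts are longer lived.

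Total counts in genes ran from 30486316 to 33181814 per library. Levels are given as CPM, the count scaled to the TMM-adjusted library size, and levels of different genes are compared only in the authors' TPM, which is per length. Differences between groups are edgeR quasi-likelihood log2 fold changes of HC278 over DMSO with Benjamini-Hochberg adjusted p over all tested genes, and rose, fell or called mean an adjusted p under 0.05. HC278 replicate 6 and DMSO replicate 3 stood apart along gene length. Relative to the DMSO mean, the median of long genes less that of short genes (quartiles of model length, log2) was -0.69, -0.42 and 0.64 in HC278 replicates 1, 2 and 6, and -0.21, -0.10 and 0.31 in DMSO replicates 1, 2 and 3. Of 10 mesothelial and mesothelioma markers, MSLN, CALB2, WT1, UPK3B, PDPN, KRT8, KRT18 and KRT19 were present in every library. KRT5 and DES of the same list stayed under 1 CPM in every library. TP63 and SOX2 of squamous cells also stayed under 1 CPM, and PTPRC and CD3E of immune cells were at or near 0. The 5 fibroblast markers summed to 2.88 to 4.24 CPM in HC278 libraries and to 3.99 to 4.88 CPM with DMSO. The immune and endothelial list still had a summed level of 64.1 to 78.8 CPM in HC278 libraries against 38.6 to 39.3 CPM with DMSO, nearly all of it CD68. Of the marker lists, the mesothelial CALB2 (log2 1.35, edgeR adjusted p = 0.0336) and UPK3B (1.05, 0.0165), CD68 (0.91, 0.0100) and CD14 (1.33, 0.0322) of myeloid cells, and NAPSA of lung cells (2.03, 0.0295, under 1 CPM throughout) rose under HC278. Of all tested genes, 5.4% were called higher. Of 6 fits that each left out 1 library, the call was lost in 5 for CALB2, CD14 and NAPSA. For UPK3B and CD68 it was lost in 4. NR1H2 covers NAPSA from the opposite strand with 22776% of its reads and shares 0 exon bases with it. AC016876.3, on the same strand as CD68, shares 1789 exon bases with it and had 11.4% of its reads. The part of these marker differences in the results was not tested. In bulk RNA, fewer cells that express a gene and less RNA per cell cannot be told apart.

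JUNB rose under HC278, while JUND was higher and JUN lower without passing the test in all 6 libraries, so the bases before the starts of these JUN genes are shown. Each is the 250 bases ahead of the annotated start, read 5' to 3' on the gene's strand, from RefSeq on GRCh38.p14. They lie at chr19:12791236-12791485 on the plus strand for JUNB, and on the minus strand at chr19:18281623-18281872 for JUND and chr1:58784048-58784297 for JUN. Capitals mark a match to TGACNTCA, a CRE-like motif, on either strand, and JUNB holds none. JUND and JUN were added after their values were seen.
JUNB: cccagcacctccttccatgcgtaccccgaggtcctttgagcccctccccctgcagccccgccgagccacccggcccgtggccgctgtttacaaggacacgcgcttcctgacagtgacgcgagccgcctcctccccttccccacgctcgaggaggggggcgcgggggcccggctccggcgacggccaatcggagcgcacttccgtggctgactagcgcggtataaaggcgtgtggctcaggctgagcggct
JUND: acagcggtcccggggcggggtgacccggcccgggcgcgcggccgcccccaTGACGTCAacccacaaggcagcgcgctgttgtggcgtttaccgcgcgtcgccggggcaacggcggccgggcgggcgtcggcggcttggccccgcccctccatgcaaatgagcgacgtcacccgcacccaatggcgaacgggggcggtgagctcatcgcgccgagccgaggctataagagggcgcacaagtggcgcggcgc
JUN: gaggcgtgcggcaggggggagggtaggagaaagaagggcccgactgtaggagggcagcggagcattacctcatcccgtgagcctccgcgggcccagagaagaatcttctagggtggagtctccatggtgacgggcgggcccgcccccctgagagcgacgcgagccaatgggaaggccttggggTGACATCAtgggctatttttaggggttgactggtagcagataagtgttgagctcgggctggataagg

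The match in JUND, TGACGTCA, begins 200 bases before the start, and the match in JUN, TGACATCA, begins 67 bases before it. Promoters of 8 members were found in the RefSeq table, in 10 windows since ATF3 and MAFF have more than 1 start there. A TGACNTCA match was in 4 of the 10 windows, those of JUN and JUND and 1 each of ATF3 and MAFF, against 6.87% of all 35116 promoter windows of that length. The TRE (TGANTCA) was in 0 of the 10 windows and in 6.57% of all windows, and the TEAD motif (GGAATG, either strand) was in 0 of the 10 and in 11.9% of all. With 0 matches of the TRE and of the TEAD motif, none overlapped a TGACNTCA match. A match describes letters only, and its absence says nothing about sites outside these bases.

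JUNB rose under HC278 and was the only member to pass the test with all 6 libraries. It encodes a JUN protein that pairs with FOS proteins and activates many TRE-driven genes less strongly than JUN. JUNB (ENSG00000171223) is an intronless gene on chromosome 19 of hg38, at 12791486 to 12793315 on the plus strand. It had 50.1, 47.2 and 42.8 CPM across replicates 1, 2 and 6 of HC278, against 22.7, 23.3 and 18.7 CPM across replicates 1, 2 and 3 of DMSO. Every HC278 library lay above every DMSO library, and the spread within each group was small beside the gap. The means were 46.7 ± 3.66 CPM with HC278 and 21.6 ± 2.47 CPM with DMSO (SD, n = 3 each), a log2 fold change of 1.11 (SE 0.13, edgeR adjusted p = 0.00772), or 2.16-fold higher. In TPM, JUNB had 68.6, 72.8 and 93.4 under HC278, against 37.6, 39.6 and 35.6 with DMSO, again without overlap. The direction held in every fit, at 1.002 to 1.19. JUNB has a short model of 1830 bases, and in CPM it was lowest in HC278 replicate 6 and DMSO replicate 3, where short genes are lower. With the trend on gene length taken out of all 6 libraries it rose (log2 1.002, edgeR adjusted p = 0.00324). The call was lost without HC278 replicate 2 (edgeR adjusted p = 0.0532), DMSO replicate 1 (0.0590) or DMSO replicate 2 (0.0638). Far fewer of all genes were called in those fits, and 0 without DMSO replicate 2. HOOK2 spans JUNB on the opposite strand and shares 259 exon bases with it, and it had 21.8, 20.6 and 16.0 CPM over the HC278 libraries, against 13.1, 14.0 and 12.9 CPM over the DMSO libraries (log2 0.55, adjusted p = 0.0732). Since the strand setting of the counting is not given in the sources used here, reads of this pair may be mixed, and the part of HOOK2 in the JUNB result was not tested.

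JUND, whose protein is often linked to restraint of growth, was about as much higher as JUNB but varied more between libraries. JUND (ENSG00000130522, intronless, chromosome 19, 18279694 to 18281622, minus strand) had 235, 169 and 134 CPM across replicates 1, 2 and 6 of HC278, against 99.4, 92.6 and 64.4 CPM across replicates 1, 2 and 3 of DMSO. The groups did not overlap, nor did they in TPM, with 306, 248 and 277 under HC278 against 156, 150 and 116 with DMSO. The log2 fold change was 1.07 (SE 0.26) and narrowly missed the threshold (edgeR adjusted p = 0.0524). It passed without HC278 replicate 6 (log2 1.24, edgeR adjusted p = 0.00731) and with the trend on gene length taken out of all 6 libraries (log2 0.94, edgeR adjusted p = 0.0120). DESeq2 on all 6 libraries also called JUND higher (adjusted p = 0.00278), whereas limma-voom did not (adjusted p = 0.0537). At 1929 bases JUND is a short gene model. In CPM, HC278 replicate 6 and DMSO replicate 3, where short genes are lower, were the lowest libraries of JUND in their groups. In TPM the lowest were HC278 replicate 2 and DMSO replicate 3. The part of gene length in this spread was not tested.

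JUN, the strongest activator among the JUN proteins and the classical target of JNK, was lower under HC278 without passing the test. JUN (ENSG00000177606, intronless, chromosome 1, 58780791 to 58784047, minus strand) had 115, 127 and 141 CPM across replicates 1, 2 and 6 of HC278, against 174, 173 and 172 CPM across replicates 1, 2 and 3 of DMSO. The DMSO libraries were nearly identical and all HC278 libraries lay below them. The log2 fold change was -0.44 (SE 0.12, edgeR adjusted p = 0.0660), and it became -0.51 without HC278 replicate 6 (edgeR adjusted p = 0.00647). DESeq2 on all 6 libraries also called JUN lower (adjusted p = 0.00316). On the authors' TPM scale the groups touched, with 88.6, 110 and 172 TPM in the HC278 libraries against 162, 166 and 183 TPM in the DMSO libraries.

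**Figure D1:**
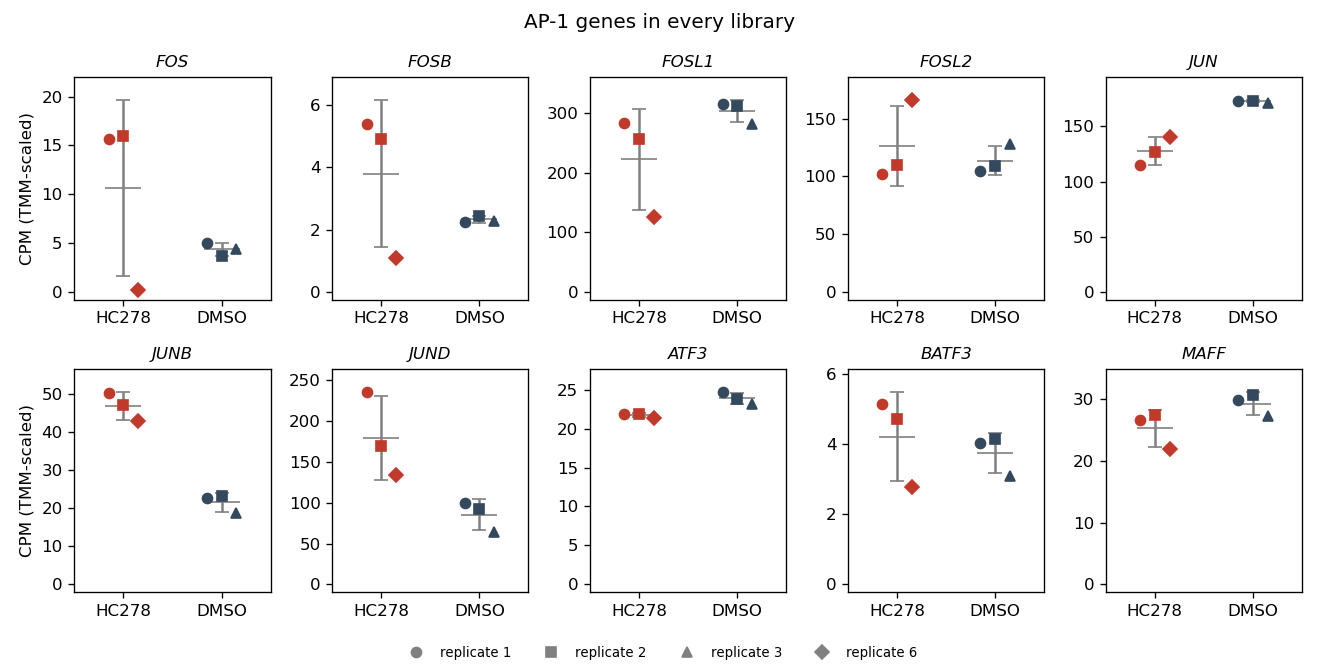
Level of each of the 10 AP-1 genes (vertical axis, TMM-scaled CPM from 0) in the 3 HC278 and 3 DMSO libraries, one marker shape per replicate number, with grey bars for the mean and SD of each group. JUNB and JUND are higher and JUN is lower in every HC278 library, while FOS and FOSB are high in HC278 replicates 1 and 2 and lowest in HC278 replicate 6.

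FOS, the founding member of the family and a standard readout of recent growth factor signalling, split the HC278 libraries. FOS (ENSG00000170345, chromosome 14, 75278826 to 75282230, plus strand) had 15.7 and 16.0 CPM in HC278 replicates 1 and 2 but 0.234 CPM in HC278 replicate 6, against 5.04, 3.72 and 4.40 CPM across replicates 1, 2 and 3 of DMSO. HC278 replicates 1 and 2 were thus above all DMSO libraries, and HC278 replicate 6 was far below them. In reads these were 447, 504 and 8 with HC278, against 161, 123 and 149 with DMSO. The 8 reads have an exact 95% Poisson interval of 3.45 to 15.8 reads, which covers counting error only. FOS was 67.0-fold and 68.3-fold lower in HC278 replicate 6 than in HC278 replicates 1 and 2. Among 13070 tested genes with at least 1 CPM in both of those libraries, 35 were 10-fold or more lower in HC278 replicate 6, of which 22 had 0 reads there, and FOS was one of the 35. With all 6 libraries the difference of FOS between groups had a log2 fold change of 1.27 with an SE of 1.10 (edgeR adjusted p = 0.533). Without HC278 replicate 6 it was 1.85 (SE 0.14, edgeR adjusted p = 0.000876).

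FOSB, another immediate early gene of the FOS group, had the same arrangement at a lower level. FOSB (ENSG00000125740, chromosome 19, 45467995 to 45475179, plus strand) had 5.36, 4.91 and 1.08 CPM across replicates 1, 2 and 6 of HC278, against 2.25, 2.45 and 2.27 CPM across replicates 1, 2 and 3 of DMSO. HC278 replicates 1 and 2 lay above and HC278 replicate 6 below every DMSO library. The log2 fold change was 0.70 (SE 0.55, edgeR adjusted p = 0.489) with all libraries and 1.14 (edgeR adjusted p = 0.00261) without HC278 replicate 6. The FOSB level may be uncertain, since ERCC1 covers the locus from the other strand and had 1498% of FOSB's reads. These genes share 0 exon bases, and the part of ERCC1 in the FOSB result was not tested. ERCC1 itself had 61.7, 54.3 and 37.6 CPM over the HC278 libraries, against 42.3, 40.4 and 34.4 CPM over the DMSO libraries.

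FOSL1, which encodes FRA1 and is the AP-1 subunit most often tied to invasive carcinoma and mesenchymal states, was the most abundant member in both groups. FOSL1 (ENSG00000175592, chromosome 11, 65892049 to 65900573, minus strand) had 284, 257 and 126 CPM across replicates 1, 2 and 6 of HC278, against 315, 312 and 282 CPM across replicates 1, 2 and 3 of DMSO. In CPM, HC278 replicate 6 was far below the rest, whereas HC278 replicate 1 lay within the DMSO range. In TPM the groups did not overlap, with 377, 386 and 267 under HC278 against 507, 515 and 519 with DMSO. The log2 fold change was -0.45 (SE 0.30, edgeR adjusted p = 0.411). It was -0.17 (edgeR adjusted p = 0.194) without HC278 replicate 6 and -0.61 (edgeR adjusted p = 0.0730) with the length trend taken out. FOSL1 has a short model of 1887 bases. None of these fits passed, and the part of gene length in the FOSL1 difference was not tested.

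FOSL2, which encodes FRA2, has a longer model of 7162 bases. FOSL2 (ENSG00000075426, chromosome 2, 28392448 to 28417317, plus strand) had 103, 110 and 166 CPM across replicates 1, 2 and 6 of HC278, against 105, 109 and 128 CPM across replicates 1, 2 and 3 of DMSO. The groups overlapped, and the highest library of each group was the one with raised long genes. The log2 fold change was 0.15 (SE 0.21, edgeR adjusted p = 0.720) and -0.10 without HC278 replicate 6, and neither passed.

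Of the 3 remaining factors none passed. ATF3, a bZIP factor induced by many stresses, had 21.9, 21.9 and 21.4 CPM over the HC278 libraries, against 24.7, 23.9 and 23.2 CPM over the DMSO libraries. These did not overlap, but the difference was small, at a log2 fold change of -0.14 (SE 0.10, edgeR adjusted p = 0.446), and in TPM the groups did overlap. MAFF, a small MAF protein without an activation domain of its own, had 26.5, 27.3 and 21.8 CPM over the HC278 libraries, against 29.9, 30.7 and 27.2 CPM over the DMSO libraries (log2 -0.21, edgeR adjusted p = 0.365). The MAFF groups overlapped narrowly. PLA2G6 overlaps 14012 bases of MAFF on the opposite strand, with 0 exon bases shared, and had 25.2% of its reads. PLA2G6 itself rose (log2 0.98, edgeR adjusted p = 0.0130). BATF3, best known from dendritic cells, where it pairs with JUN and IRF proteins, had 5.15, 4.72 and 2.78 CPM over the HC278 libraries, against 4.04, 4.14 and 3.10 CPM over the DMSO libraries. The BATF3 groups overlapped as well (log2 0.16, edgeR adjusted p = 0.765). Their places on hg38 are chromosome 1, 212565334 to 212620777 (plus strand) for ATF3, chromosome 1, 212686417 to 212699840 (minus strand) for BATF3, and chromosome 22, 38200767 to 38216507 (plus strand) for MAFF.

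Counted together, 1 of 10 members rose and 0 fell in edgeR with all 6 libraries, where 10.8% of all tested genes were called (5.4% higher and 5.38% lower), so the members' share is near that background. At an unadjusted p under 0.05, edgeR had 2 members higher and 1 lower, where 26.5% of all genes passed that level. DESeq2 called 2 higher and 1 lower, where it called 18.2% of all genes, and limma-voom 1 higher and 0 lower, where it called 10.9%. In CPM the groups did not overlap for 4 of the 10 members (JUN, JUNB, JUND and ATF3), against 34.6% of all tested genes. Without HC278 replicate 6, which leaves HC278 with 2 libraries, FOS, FOSB, JUNB and JUND rose and JUN fell, 5 of 10, where 40.6% of all genes were called (19.8% higher and 20.7% lower). Without DMSO replicate 3 as well, 4 rose and 1 fell, where 40.4% of all genes were called. With the length trend taken out, 2 rose (JUNB and JUND), where 17.4% of all genes were called. The median log2 fold change of the members was 0.16 with all libraries, beside 0.05 over all tested genes.

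**Figure D2:**
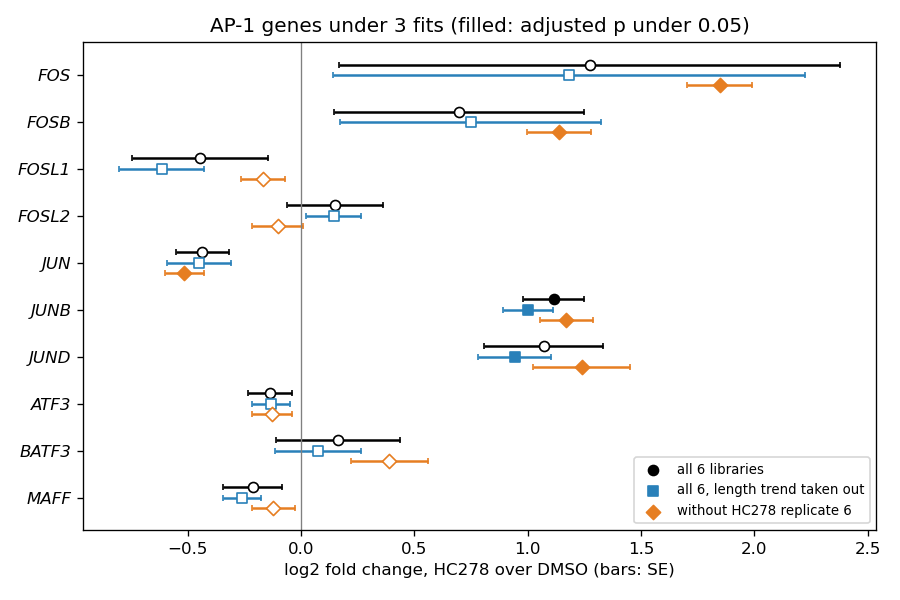
Log2 fold change of HC278 over DMSO for each of the 10 AP-1 genes (horizontal axis) with bars of 1 SE and filled markers for an adjusted p under 0.05, in the fit of all 6 libraries, without HC278 replicate 6, and with the trend on gene length taken out. JUNB and JUND lie near 1 in all 3 fits, while the fold changes of FOS and FOSB are larger, and their SE smaller, without HC278 replicate 6.

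Per length, FOSL1 led in both groups, and the order behind it differed between them. Under HC278 the order of mean TPM was FOSL1 (343 ± 66.0 TPM, SD, n = 3), JUND (277 ± 29.1), JUN (124 ± 43.5), JUNB (78.3 ± 13.3), FOSL2 (57.2 ± 30.8), MAFF, ATF3, FOS, BATF3 and FOSB. With DMSO it was FOSL1 (514 ± 6.34 TPM), JUN (170 ± 11.6), JUND (141 ± 21.4), FOSL2 (51.2 ± 9.55), JUNB (37.6 ± 1.97), MAFF, ATF3, BATF3, FOS and FOSB. Under HC278 the ranges of FOSL1 and JUND, JUN and JUNB, JUNB and FOSL2, ATF3 and FOS, and FOS and BATF3 overlapped between libraries. Within each HC278 library JUN was nevertheless above JUNB, JUNB above FOSL2 and ATF3 above FOS, whereas FOSL1 was above JUND, and FOS above BATF3, in replicates 1 and 2 and below in replicate 6. With DMSO only BATF3 and FOS overlapped, and their order differed between libraries. FOS and FOSB thus stood near the bottom of the family in both groups.

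The make-up of the family's transcripts leaned towards JUN genes under HC278. Of the summed TPM of the 10 members, JUN, JUNB and JUND together held 49.7%, 46.7% and 56.6% in HC278 replicates 1, 2 and 6, against 36.8%, 36.2% and 34.2% in DMSO replicates 1, 2 and 3. FOS, FOSB, FOSL1 and FOSL2 held 45.9%, 48.2% and 37.6% in the HC278 libraries against 57.6%, 58.0% and 60.0% in the DMSO libraries. Neither share overlapped between groups, and the mean difference was 15.2 percentage points for the JUN genes and -14.6 for the FOS genes. ATF3, BATF3 and MAFF together held 4.44%, 5.09% and 5.76% in the HC278 libraries against 5.61%, 5.73% and 5.78% in the DMSO libraries, which overlapped. These shares are given with no test, since the members were chosen with earlier results known and an exact permutation test of 3 libraries against 3 cannot go below p = 0.1.

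JUND and FOSL1 carried most of the difference in shares. JUND held 32.8%, 26.8% and 28.9% in the HC278 libraries against 16.2%, 15.3% and 11.9% in the DMSO libraries. FOSL1 held 40.4%, 41.8% and 27.9% in the HC278 libraries against 52.4%, 52.7% and 53.0% in the DMSO libraries. JUNB held 7.36%, 7.88% and 9.74% in the HC278 libraries against 3.89%, 4.04% and 3.64% in the DMSO libraries, without overlap. Among the JUN genes alone, JUN made up 19.1%, 25.6% and 31.8% in the HC278 libraries against 45.5%, 46.7% and 54.7% in the DMSO libraries, while JUND made up 66.0%, 57.5% and 51.0% in the HC278 libraries against 44.0%, 42.2% and 34.7% in the DMSO libraries. The summed TPM of all 10 members was 932, 923 and 959 in the HC278 libraries against 967, 978 and 980 in the DMSO libraries. On that scale this was a small difference beside the shifts within the family. TPM is not TMM-scaled and the sum was not taken in CPM, so a stable family total was seen on the TPM scale only. Shares compare genes of different length, and in CPM, which is not per length, the differences were 9.42 points for the JUN genes and -8.63 for the FOS genes. Messenger shares say nothing of protein or of which dimers formed.

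**Figure D3:**
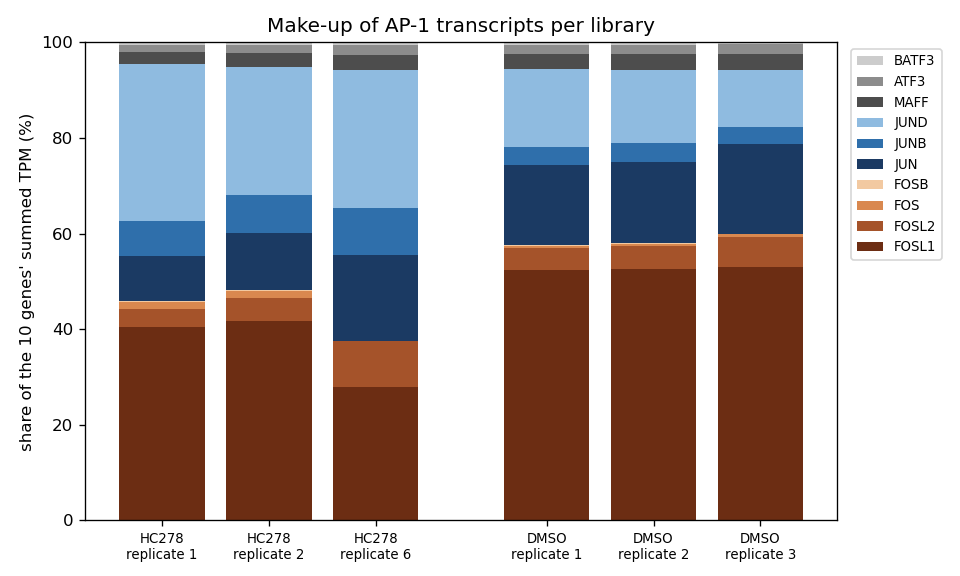
Share of the summed TPM of the 10 AP-1 genes (vertical axis, percent, from 0) held by each gene in the 3 HC278 and 3 DMSO libraries, one stacked bar a library. JUND is the widest JUN band in every HC278 library (26.8% to 32.8%), and FOSL1 holds 27.9% to 41.8% in the HC278 libraries against 52.4% to 53.0% in the DMSO libraries.

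By the mean absolute difference of centred log2 CPM over the 6 libraries, the genes whose pattern was nearest to JUNB were SYTL1 (0.03), ITGB1-DT (0.04) and SOX9 (0.05). SOX9, a transcription factor of chondrocytes and epithelial progenitors, had 18.0, 16.1 and 15.3 CPM over the HC278 libraries, against 7.17, 7.70 and 6.35 CPM over the DMSO libraries. For JUND, the most abundant JUN gene by mean TPM over all 6 libraries (with DMSO alone JUN was above it), the nearest were ZNF580 (0.04), MFSD13A (0.05) and TM7SF2 (0.06). TM7SF2, an enzyme of cholesterol synthesis, had 37.6, 30.0 and 23.3 CPM over the HC278 libraries, against 16.5, 15.6 and 11.8 CPM over the DMSO libraries, the same order of libraries within each group as JUND. For FOSL1, the most abundant FOS gene, MED27, PRXL2B and CMC2 were nearest (0.04 each). All 3 were lowest in HC278 replicate 6, as FOSL1 was. Likeness of the named genes to JUNB, JUND and FOSL1 was built in, since they were chosen by pattern over the same 6 libraries.

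Most other bZIP partners did not pass the test. Of 13 listed, 11 passed the filter, 1 rose and 1 fell, with a median log2 fold change of -0.01 beside 0.05 over all tested genes. Over all tested genes, 10.8% were called (5.4% higher and 5.38% lower). JDP2, a repressor that dimerizes with JUN proteins, had 15.3, 13.8 and 11.5 CPM across replicates 1, 2 and 6 of HC278, against 33.5, 31.9 and 26.8 CPM across replicates 1, 2 and 3 of DMSO. It fell by 1.19 on the log2 scale (SE 0.16, edgeR adjusted p = 0.00964), and every HC278 library lay far below every DMSO library. MAF, a large MAF factor with an activation domain, had 7.26, 9.16 and 21.8 CPM over the HC278 libraries, against 2.07, 2.11 and 2.42 CPM over the DMSO libraries. It rose (log2 2.53, SE 0.45, edgeR adjusted p = 0.0213), with HC278 replicate 6 well above the other HC278 libraries. The rest lay between -0.21 and 0.43.

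Of 19 serum and ERK immediate early genes besides the members, 17 passed the filter, 0 rose and 1 fell in edgeR, with a median of 0.01, where 10.8% of all genes were called. At an unadjusted p under 0.05, edgeR had 2 of them higher and 3 lower, beside 26.5% of all genes. DESeq2 called 0 higher and 2 lower, beside 18.2% of all genes, and limma-voom 0 higher and 1 lower, beside 10.9%. MYC, a driver of growth and ribosome production, had 67.7, 76.1 and 63.4 CPM across replicates 1, 2 and 6 of HC278, against 119, 124 and 122 CPM across replicates 1, 2 and 3 of DMSO. It fell by 0.82 on the log2 scale (SE 0.11, edgeR adjusted p = 0.0109). The other 16 ranged from -1.04 to 1.29. Without HC278 replicate 6, 4 rose and 3 fell, beside 40.6% of all genes.

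Of 15 kinases that act upstream of AP-1, 14 passed, 0 rose and 2 fell in edgeR, with a median of -0.11, beside 10.8% of all genes called. At an unadjusted p under 0.05 the counts were also 0 and 2, beside 26.5% of all genes. DESeq2 called 0 higher and 2 lower, beside 18.2% of all genes, and limma-voom 0 higher and 1 lower, beside 10.9%. MAPK8, which encodes JNK1, the kinase that phosphorylates JUN, had 21.0, 22.5 and 26.1 CPM over the HC278 libraries, against 34.1, 35.1 and 40.4 CPM over the DMSO libraries (log2 -0.65, edgeR adjusted p = 0.0326). MAP2K1, which encodes the ERK activator MEK1, had 42.6, 51.8 and 52.0 CPM over the HC278 libraries, against 67.3, 68.5 and 71.7 CPM over the DMSO libraries (log2 -0.50, edgeR adjusted p = 0.0493). The groups of both kinases did not overlap, but SNAPC5 on the opposite strand shares 216 exon bases with MAP2K1. Without HC278 replicate 6, 3 kinases rose and 6 fell, beside 40.6% of all genes (19.8% higher and 20.7% lower). Of 10 genes for turnover and restraint of AP-1 proteins, such as the ubiquitin ligase genes FBXW7 and COP1, edgeR called 0 in either direction, beside 10.8% of all genes. At an unadjusted p under 0.05 it had 2 higher and 0 lower, beside 26.5% of all genes. DESeq2 called 1 higher, beside 18.2% of all genes, and limma-voom 0, beside 10.9%. These 10 turnover genes had a median of -0.06 and a range of -0.25 to 0.69. Without HC278 replicate 6, 1 of them rose and 2 fell, beside 40.6% of all genes.

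Of 22 classical AP-1 targets, 21 passed the filter, 4 rose and 1 fell, with a median of 0.15, where 10.8% of all tested genes were called (5.4% higher and 5.38% lower). MMP9, a secreted gelatinase, had 4.45, 4.44 and 4.33 CPM across replicates 1, 2 and 6 of HC278, against 0.344, 0.483 and 0.266 CPM across replicates 1, 2 and 3 of DMSO. It rose (log2 3.58, SE 0.25, edgeR adjusted p = 0.00393), and its DMSO level rests on 11, 16 and 9 reads. PLAU, the urokinase protease, had 27.7, 30.6 and 18.0 CPM over the HC278 libraries, against 9.89, 9.79 and 9.34 CPM over the DMSO libraries and rose as well (log2 1.39, edgeR adjusted p = 0.0143). MMP10 and FGFBP1, which also rose, stayed under 3 CPM in every library. CCND1, the G1 cyclin, had 154, 149 and 147 CPM over the HC278 libraries, against 279, 285 and 325 CPM over the DMSO libraries, and fell by 0.98 on the log2 scale (edgeR adjusted p = 0.00725). LTO1 on the opposite strand shares 497 exon bases with CCND1 and had 11.03% of its reads. Called targets thus lay in both directions. Without HC278 replicate 6, 10 rose and 4 fell, again beside 40.6% of all genes.

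Each of these 10 calls was lost in at least 1 fit that left out a library. Without DMSO replicate 2, 0 of all 15979 tested genes were called, so that fit cannot tell these genes from others. Over all genes, 110 were higher and 142 lower without HC278 replicate 2, and 64 and 100 without DMSO replicate 1. The counts were 98 and 148 without DMSO replicate 3, and 401 and 418 without HC278 replicate 1. With all 6 libraries they were 837 and 835. JDP2 and CCND1 were not called without HC278 replicate 2, DMSO replicate 1 or DMSO replicate 2, with edgeR adjusted p of 0.0545 to 0.0688. MAF, MYC and PLAU were not called without HC278 replicate 2 or any 1 DMSO library (0.0527 to 0.114), and MMP9 only without DMSO replicate 2 (0.0502). MAPK8, MAP2K1, MMP10 and FGFBP1 were lost without any 1 library other than HC278 replicate 6 (0.0798 to 0.198).

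**Figure D4:**
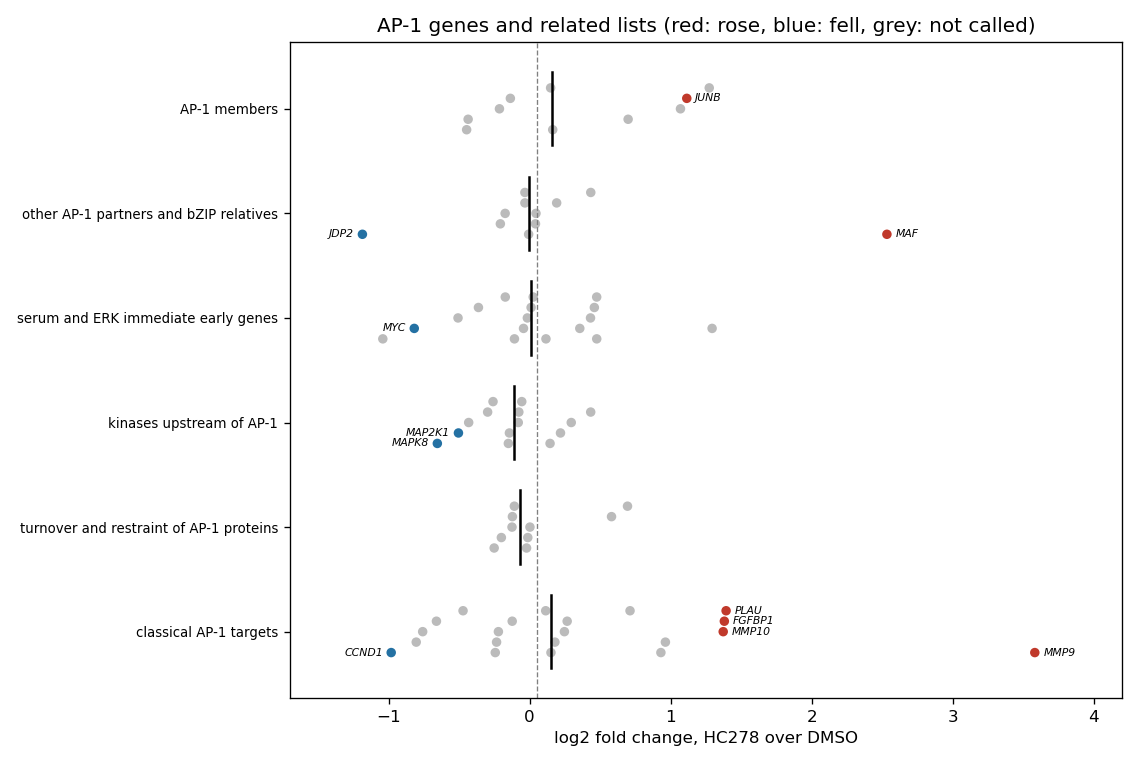
Log2 fold change of HC278 over DMSO (horizontal axis) for each tested gene of the AP-1 members and of the 5 related lists, with a bar at the median of each list and a dashed line at the median of all tested genes (0.05). Red genes rose, blue genes fell (edgeR adjusted p under 0.05) and grey ones were not called, and MMP9 (3.58) and MAF (2.53) stand farthest to the right.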

How the data were processed

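RNA of 6 libraries of NCI-H226 cells was analysed, 3 with HC278 and 3 with DMSO, grouped and numbered by the sample titles. Per the labels' protocols, DMEM with FBS was the medium, Trizol served for RNA and the libraries came from a stranded mRNA kit of Illumina. The spellings of the compound's name were taken as 1 compound, since the treatment text is identical in all treated samples.

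The deposited table gives raw read counts per gene, per the file headers. TPM and RPKM are the authors' own values, as the file headers name them. A deposited scaled signal, named CPM per the file headers, was not used in a result. The submitters' processing notes name build hg38. Not given in the sources used here are the aligner, the counter with its strand setting, and the annotation. GENCODE release 29 served for exon overlaps, and model lengths were recovered from the deposited counts and TPM and scaled to that release (76.0% of genes within 1% of it). No measurement column was left out.

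The test was run on counts in edgeR 4.0.16 under R 4.3.3 (filterByExpr with its minimum count of 10, TMM factors of 0.903 to 1.12, glmQLFit and glmQLFTest), with adjustment over all 15510 tested genes and a threshold of 0.05. CPM is the count over the TMM-scaled library size, SDs are over 3 libraries, and 3 counts equal 0.0904 to 0.0984 CPM (counting error alone). The common biological coefficient of variation was 26.0%. No 2 libraries of a group agreed within sampling noise. On simulated counts of HC278 against DMSO (15510 genes) the test called 10% of 100 genes changed 2-fold, 77% of 100 changed 4-fold and 1 unchanged gene. Far fewer genes were changed there than the 1672 called in the data, so these rates need not hold for the data. DESeq2 1.42.0 and limma-voom (limma 3.58.1), other scalings and filters, glmTreat against a fold of 1.5, a replicate block, left-out libraries and a loess trend (span 0.5) of each library on model length were alternatives.

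The members and lists were chosen with earlier results of these data known. The rule for names took all 10 members, every called gene of each other list, marker lists included (at most 6), and the 3 genes (mean CPM of 1 or more) nearest in pattern to each called member and to the most abundant FOS and JUN gene. Promoters are from RefSeq (GRCh38.p14). FOSL1 and BATF3 are not printed. Figures were drawn with matplotlib 3.10.9.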

Additional observations from a re-analysis of the deposited data

How the results depend on the processing

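Leaving out HC278 replicate 6 raised the counts of called genes, and leaving out any other single library lowered them. JUNB kept its direction in all 17 alternatives and passed in 14, and JUND was higher in all 17 and passed in 8. All genes called higher numbered 837, against 1364 with DESeq2, 553 with no filter, 162 with glmTreat against a fold of 1.5, 1264 with the length trend taken out, 3048 without DMSO replicate 3 and HC278 replicate 6, and 0 to 3133 on leaving out 1 library. All genes called lower numbered 835, against 1454 with DESeq2, 181 with glmTreat, 1427 with the length trend taken out, 3274 without both of those libraries, and 0 to 3280 on leaving out 1 library. The 0 came from edgeR without DMSO replicate 2, where 2864 genes had an unadjusted p under 0.05, and no other tool was run without that library. Of the members, 1 was called higher, against 2 each with upper quartile factors, library size alone, DESeq2, no filter and the length trend taken out, 4 without both libraries, and 0 to 4 on leaving out 1 library. In edgeR 0 were called lower, against 1 with DESeq2, 1 without both libraries and 0 to 1 on leaving out 1 library. The values that changed sign were FOS with limma-voom (log2 -0.20, adjusted p = 0.960), BATF3 without HC278 replicate 1 (-0.00896, and up to 0.39 with another library left out), and FOSL2 without HC278 replicate 6 (-0.10, and up to 0.27 with another left out), without both libraries (-0.00688) and with the replicate block (-0.00707). The cause was not tested. In CPM, not per length, the difference in share was 9.42 points for the JUN genes and -8.63 for the FOS genes, against 15.2 and -14.6 in TPM.

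Replicate numbers 1 and 2 are shared between groups, but no label says what they mark. With the number as a replicate block, 3954 genes were called higher and 4218 lower, and 4 members were higher and 2 lower (JUN and FOSL1, edgeR adjusted p of FOSL1 0.0302). That fit rests on numbers 1 and 2 alone, whose deviations from the group means correlated at 0.52 and 0.18, since HC278 replicate 6 and DMSO replicate 3 each have a number of their own. FOS in HC278 replicate 6 rests on 8 reads, and counts under 3 are not distinguished from absence at this depth.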
